A study of Mus musculus with 45 samples.

Results

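Nodal and BMP signalling was followed through 10 of the 55385 genes in the deposited tables. These were taken by symbol, with earlier results of these data known. They are the ligands *Nodal* and *Bmp4*, the receptors *Acvr2b* (activin type II) and *Bmpr1a* (BMP type I), the inhibitors *Lefty1*, *Lefty2* and *Smad7*, and the BMP target genes *Id1*, *Id2* and *Id3*. All 10 were read in the 18 RNA-seq libraries. The study asked what the ETS-family transcription factor GABPA does before implantation, using a degron allele that lets the small molecule dTAG13 remove the tagged protein. Every group, controls included, was homozygous for the *Gabpa*-dTAG allele. Each dTAG13 group was set against DMSO at the same stage, in libraries of late two-cell (L2C) embryos (3 and 3), morulae (2 and 2), E4.5 inner cell masses (ICM; 2 and 2) and 2iES cells (2 and 2). Embryos came from in vitro fertilization with females aged 7 to 8 weeks and males aged 8 to 12 weeks, and met 1 μM dTAG13 from 6 to 30 hours post fertilization for L2C, from 42 hours for the morula, and from 84 to 100 hours for the ICM. The ICM was freed of trophectoderm (TE) by immunosurgery and so holds both epiblast (EPI) and primitive endoderm (PrE) cells. The 2iES cells, from a picked clone of a tagged ES-E14 line, met 0.5 μM dTAG13 for 24 hours in medium with serum, LIF and inhibitors of MEK and GSK3. The treatment windows therefore differed in length as well as in stage, and the 2iES medium itself acts on signalling.

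NODAL, a ligand of the TGF-β family, binds activin receptors together with a co-receptor, and the signal passes to SMAD2 and SMAD3. LEFTY1 and LEFTY2 are secreted antagonists that NODAL itself induces, which forms a feedback loop. BMP4 binds BMPR1A, acts through SMAD1 and SMAD5, and induces the ID proteins, which lack a DNA-binding domain and hold bHLH factors away from DNA. In mouse ES cells, BMP and ID proteins work with LIF to keep cells undifferentiated, and in the blastocyst *Nodal*, the *Lefty* genes and *Bmp4* are known from the EPI whereas *Id2* is known from the TE.

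The stretches of 250 bases before the RefSeq start sites of *Bmp4* and *Nodal* (GRCm38.p6) are shown because *Bmp4* was lower with dTAG13 in both the ICM and 2iES cells, whereas *Nodal* moved in opposite directions there. *Bmp4* was read on the minus strand at chr14:46390670-46390919 and *Nodal* on the plus strand at chr10:61417722-61417971. Capitals mark CTTCCGG, the reverse complement of the ETS-type core CCGGAAG.

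*Bmp4* upstream: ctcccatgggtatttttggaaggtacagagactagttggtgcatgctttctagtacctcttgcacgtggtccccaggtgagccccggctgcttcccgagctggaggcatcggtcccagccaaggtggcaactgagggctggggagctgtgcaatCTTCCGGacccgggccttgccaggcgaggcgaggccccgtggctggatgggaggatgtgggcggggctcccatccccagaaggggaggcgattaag

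*Nodal* upstream: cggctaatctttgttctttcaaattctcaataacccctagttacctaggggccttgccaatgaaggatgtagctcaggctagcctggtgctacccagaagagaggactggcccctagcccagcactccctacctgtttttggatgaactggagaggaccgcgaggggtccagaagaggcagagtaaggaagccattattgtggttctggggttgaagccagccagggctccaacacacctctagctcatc

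The *Bmp4* match lies at bases -96 to -90 from the start site, and the *Nodal* window holds no match. Over windows of 300 bases, from 250 before to 50 after a start, CCGGAAG on either strand occurs in 2910 of 32851 promoters (8.86%). RefSeq windows were at hand for 6 of the 10 genes, and *Bmp4* was the only one of the 6 with this motif. The SMAD motif GGCGCC occurs in 3898 windows (11.9%), among them those of *Id2* at -231 to -226 and *Bmpr1a* at -198 to -193, and GTCTAGAC, found in 70 windows (0.213%), occurs in none of the 6. These are matches of letters, and binding was not analysed here. On GRCm38 the genes other than *Smad7* lie at chr10:61417972-61425338 (*Nodal*), chr1:180935022-180938400 (*Lefty1*), chr1:180893108-180899103 (*Lefty2*), chr9:119402118-119434995 (*Acvr2b*), chr14:46383520-46390669 (*Bmp4*, minus strand), chr14:34410734-34503341 (*Bmpr1a*, minus strand), chr2:152736251-152737410 (*Id1*), chr12:25093799-25097140 (*Id2*, minus strand) and chr4:136143497-136145755 (*Id3*).

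The libraries held between 9457933 and 27660132 expected counts each, with the lowest totals in morulae (9457933 to 12382705). The study's methods call the replicates biological, and the labels do not say which embryo pools or cultures they came from, so p-values measure the spread between these libraries. That spread was smallest in the ICM (biological coefficient of variation 0.0237, against 0.159 in 2iES cells, 0.213 in morulae and 0.284 at L2C). *Gabpa* mRNA was not lower with dTAG13 at any stage, with mean TPM of 103 and 153 at L2C, 7.40 and 13.2 in morulae, 10.6 and 27.4 in the ICM, and 6.57 and 11.2 in 2iES cells. The degron acts on the protein, so these mRNA levels do not show whether it was degraded.

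In control libraries, *Nodal*, *Lefty1*, *Lefty2* and *Bmp4* were at or near 0 at L2C and in morulae and well above it in the ICM and 2iES cells, and the other 6 genes were detected at all 4 stages. Levels are given as TPM, transcript abundances corrected for length and scaled to the same total in each library, and stages were compared on counts with the edgeR quasi-likelihood test, adjusted by Benjamini-Hochberg. A gene was called different where the adjusted p was under 0.05, the levels differed at least 2-fold and either stage had a mean FPKM of 1 or more (FPKM being fragments per length and depth). *Nodal* had 0.07, 0.21 and 0 TPM at L2C and 0.33 and 0.19 TPM in morulae, against 12.4 and 11.3 TPM in the ICM and 14.4 and 11.2 TPM in 2iES cells. *Lefty2* had no count in any L2C or morula library, treated libraries included, and 24.6 and 25.6 TPM in the ICM. Counted against a floor of 3 counts per library, ICM *Lefty2* was at least 398-fold above L2C and at least 188-fold above the morula. *Lefty1* (14.3 and 14.6 TPM) and *Bmp4* (35.3 and 37.3 TPM) were likewise highest in the ICM, with at most 0.27 and 0.59 TPM in any control morula. At L2C, *Bmp4* had 0, 25 and 2 counts, the 25 counts standing for 1.58 TPM in DMSO replicate 2. Neither *Nodal* (adjusted p = 0.16), *Lefty2* (0.123) nor *Bmp4* (0.214) was distinguished between ICM and 2iES cells by edgeR, but *Lefty1* was lower in 2iES cells (2.85 and 2.24 TPM, log2 change -1.91, SE 0.39, adjusted p = 0.00203). Both *Lefty* genes share sequence, with 25.7% of *Lefty1* and 18.4% of *Lefty2* 31-base words found in other genes, mostly each other, so their split is less certain than their sum.

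The ID genes each had their own order. *Id2* was high in morulae (56.6 and 84.1 TPM), at L2C (37.0, 70.0 and 69.9 TPM) and in 2iES cells (45.2 and 39.6 TPM), which edgeR did not distinguish from one another (adjusted p of 0.0746, 0.177 and 0.821). Only the ICM stood below them, at 13.1 and 13.9 TPM (log2 change of -2.80 from the morula, SE 0.31, adjusted p = 1.73e-05). *Id3* was higher in the ICM and 2iES cells than in earlier embryos, at 22.0, 30.6 and 24.5 TPM at L2C, 71.8 and 70.1 in morulae, 248 and 261 in the ICM and 302 and 239 in 2iES cells. *Id1* was highest in 2iES cells (39.4 and 38.4 TPM), next at L2C (12.9, 20.4 and 16.7), and low in the ICM (5.36 and 3.67) and morula (3.04 and 2.68), the last pair not being distinguished (adjusted p = 0.546). Of the receptors, *Acvr2b* had its highest TPM in the morula (22.6 and 17.7) and its lowest at L2C (2.41, 0.71 and 1.03). The ICM had 10.2 and 10.2 TPM and 2iES cells 4.53 and 2.16 TPM. On counts, edgeR did not distinguish the ICM from the morula (log2 change -0.68, adjusted p = 0.0717). The mean effective transcript length that RSEM assigned to *Acvr2b* was 2351 bases at L2C, 728 in morulae and 1147 in the ICM, which alters its TPM. *Bmpr1a* kept to a range of 4.76 to 12.5 TPM in all 9 control libraries and was not called in any of the 6 contrasts. Under the 2-fold limit, it passed the edgeR test as higher than at L2C in the morula (1.91-fold, adjusted p = 0.000841), the ICM (1.89-fold, 0.000785) and 2iES cells (1.47-fold, 0.0178). *Smad7*, which blocks receptor signalling inside the cell, ran from 1.92 TPM in the ICM to 4.29 TPM in a morula.

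Between adjacent stages, *Acvr2b* and *Id3* rose from L2C to the morula and *Id1* fell (2 of 10 higher, against 22.6% of the 19830 genes tested, and 1 lower, against 27.7%). From the morula to the ICM, *Nodal*, *Lefty1*, *Lefty2*, *Bmp4* and *Id3* were higher (5 of 10, background 16.0%) and *Id2* and *Smad7* lower (2 of 10, background 13.2%). From the ICM to 2iES cells, *Id1* (log2 change 3.71), *Id2* (2.32) and *Smad7* (1.04) were higher (3 of 10, background 12.0%) and *Lefty1* lower (1 of 10, background 12.7%). Between stages farther apart, 6 genes were higher in the ICM than at L2C (background 25.4%) and *Id1* and *Id2* lower (28.8%), 7 were higher in 2iES cells than at L2C (24.5%), and 6 were higher (18.8%) and *Acvr2b* lower (16.4%) in 2iES cells than in morulae. The *Smad7* calls lay near the limits and depended on libraries and processing. Its rise in 2iES cells was 0.89 without 2iES DMSO replicate 2. Without either ICM library it stayed at 1.04 and 1.05 but was no longer called. The rise also lost its call with library totals (0.58, edgeR adjusted p = 0.117) and in a fit of only the 2 stages compared (0.97). Its fall into the ICM was -0.91 without morula DMSO replicate 1. Scaling to library totals in place of TMM moved the median of all genes by -0.33 between ICM and 2iES cells.

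**Figure D1:**
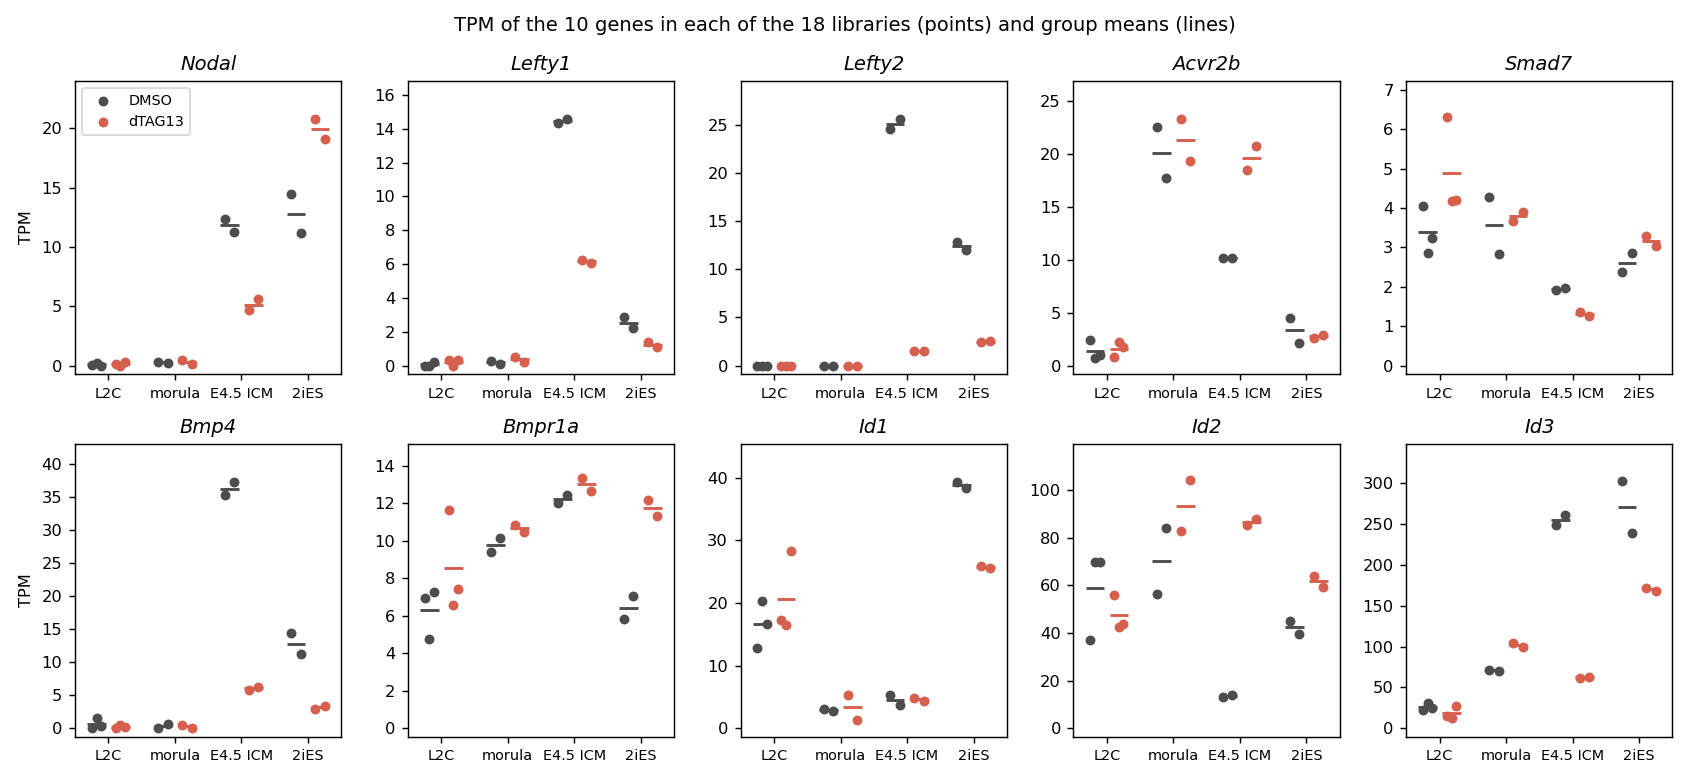
TPM (vertical axes, each including 0) of the 10 genes by stage (horizontal axes), with a point for each of the 18 libraries, lines for group means, and DMSO and dTAG13 in separate colours. *Nodal*, *Lefty1*, *Lefty2* and *Bmp4* lie near 0 at L2C and in morulae, and ICM *Id2* stands at 85.6 and 87.8 TPM with dTAG13 against 13.1 and 13.9 TPM with DMSO.

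At the L2C stage and in morulae, none of the 10 genes was called changed with dTAG13. The edgeR test could be run on 6 genes at each stage, because *Nodal*, *Lefty1*, *Lefty2* and *Bmp4* had too few counts. At L2C, *Id3*, a repressor of bHLH factors, had 22.0, 30.6 and 24.5 TPM with DMSO and 15.6, 12.5 and 27.5 TPM with dTAG13 (log2 change -0.53, SE 0.27, adjusted p = 0.294), and the groups overlapped. *Id2*, with 37.0, 70.0 and 69.9 TPM against 56.0, 42.5 and 43.9 TPM, overlapped as well (log2 change -0.39). These 2 passed the test only on leaving out 1 library, *Id3* without dTAG13 replicate 3 (adjusted p = 0.0436) and *Id2* without DMSO replicate 1 (0.0391), neither reaching 2-fold. *Smad7* had 4.06, 2.87 and 3.24 TPM with DMSO and 6.31, 4.17 and 4.21 with dTAG13 (log2 change 0.46, adjusted p = 0.253), without overlap but not past the test. In morulae, *Id3* had 71.8 and 70.1 TPM with DMSO and 104 and 99.4 TPM with dTAG13, also without overlap (log2 change 0.52, SE 0.19, adjusted p = 0.269). At an unadjusted p under 0.05, edgeR picked 0 of the 6 genes at L2C and 1 in morulae (*Id3*), and DESeq2 called 0 at both stages. The background was 3.63% of 17421 genes called lower and 0.476% higher at L2C, and 0.198% lower and 0.154% higher of 13667 genes in morulae (27 and 21 genes, or 76 and 34 with library totals in place of TMM). The median log2 change of the 6 genes was -0.08 at L2C and 0.18 in morulae, beside 0.02 and -0.02 over all genes tested.

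In the ICM, the ligands *Nodal* and *Bmp4*, both *Lefty* antagonists and *Id3* fell with dTAG13, and *Id2* rose. These were 5 genes called lower of the 10, against 13.2% of the 15840 genes tested, and 1 called higher, against 12.1%. By an adjusted p under 0.05 alone, 6 were lower and 2 higher (background 38.5% and 38.4%). The median log2 change of the 10 genes was -0.93, beside 0.01 over all genes tested.

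*Lefty2* had 24.6 and 25.6 TPM with DMSO and 1.49 and 1.50 TPM with dTAG13, an 18.2-fold fall (log2 change -4.19, SE 0.10, adjusted p = 7.92e-31). *Lefty1* had 14.3 and 14.6 TPM with DMSO and 6.24 and 6.08 TPM with dTAG13, a 2.45-fold fall (log2 change -1.29, SE 0.11, adjusted p = 1.67e-13). Both treated libraries lay far below both controls for each antagonist, and the fall of *Lefty2* was the larger. The *Lefty2* share of the summed *Lefty* TPM went from 63.5% ± 0.42 to 19.5% ± 0.36 (SD, n = 2), and the log2 change of the summed counts was -2.76. *Nodal*, the ligand that these proteins oppose, had 12.4 and 11.3 TPM with DMSO and 4.68 and 5.61 TPM with dTAG13, a 2.37-fold fall (log2 change -1.25, SE 0.10, adjusted p = 1.98e-13). Ligand and antagonists were thus all lower in both treated libraries. In bulk samples such as these, fewer cells of a type and less RNA per cell cannot be told apart from the RNA alone. The study reports that EPI cells did not yet differ in number between the groups when these ICMs were collected. Cell counts were not analysed here.

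*Bmp4* had 35.3 and 37.3 TPM with DMSO and 5.86 and 6.30 TPM with dTAG13, an 8.73-fold fall on counts (log2 change -3.13, SE 0.08, adjusted p = 1.85e-29). On TPM the log2 ratio was -2.56, since the effective transcript length that RSEM assigned to *Bmp4* went from 1729 to 1216 bases. An antisense gene, *Gm15217*, covers 3.96% of the *Bmp4* exonic bases, and the library kit does not mark strand. *Bmpr1a*, which receives BMP4, had 12.0 and 12.5 TPM with DMSO and 13.4 and 12.7 TPM with dTAG13, with no call (log2 change 0.04, SE 0.05, adjusted p = 0.416). The ligand gene *Bmp4* was thus lower and the receptor gene *Bmpr1a* not past the test, and their changes were not tested against each other. *Bmpr1a* did pass it, far under 2-fold, with library totals (log2 change 0.11, adjusted p = 0.0361) and upper-quartile scaling (0.14, adjusted p = 0.00608). *Acvr2b*, which serves NODAL, had 10.2 and 10.2 TPM with DMSO and 18.5 and 20.8 TPM with dTAG13. Its 1.45-fold rise on counts passed the test but not the 2-fold limit (log2 change 0.54, SE 0.11, adjusted p = 2.23e-05), and its effective length went from 1147 to 894 bases. *Smad7* (1.92 and 1.98 TPM with DMSO, 1.37 and 1.26 with dTAG13) was 1.53-fold lower, likewise past the test only (log2 change -0.61, SE 0.15, adjusted p = 0.000583). In the fit of all 18 libraries together, *Lefty1* (adjusted p = 0.0625), *Acvr2b* (0.148) and *Smad7* (0.0952) were no longer past it.

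The ID genes parted in the ICM. *Id3* had 248 and 261 TPM with DMSO and 61.5 and 62.9 TPM with dTAG13, a 4.19-fold fall (log2 change -2.07, SE 0.04, adjusted p = 7.03e-35). *Id2* had 13.1 and 13.9 TPM with DMSO and 85.6 and 87.8 TPM with dTAG13, a 6.36-fold rise (log2 change 2.67, SE 0.06, adjusted p = 7.79e-31). *Id1* (5.36 and 3.67 TPM with DMSO, 4.83 and 4.41 with dTAG13) overlapped between the groups and was not called (log2 change -0.02, SE 0.22, adjusted p = 0.944). Within each library, *Id2* made up 4.96% ± 0.066 of the summed *Id1*, *Id2* and *Id3* TPM with DMSO and 56.5% ± 0.19 with dTAG13 (SD, n = 2), while the *Id3* share went from 93.4% ± 0.42 to 40.5% ± 0.047. The *Id2* share in treated ICM was near that of L2C (57.4% ± 5.7, n = 3) and morula (48.3% ± 7.4, n = 2) controls, although the summed *Id* TPM differed (154, 101 and 144). With 2 libraries a group, an exact permutation test of such a share cannot go below p = 0.333.

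Lineage markers moved in the same ICM libraries. The summed TPM of 9 TE markers stood at 81.1 and 85.4 in controls and at 792 and 793 in treated libraries, with 7 of the 9 called higher and none at 0 in any ICM library. The TE keratins *Krt18* (23.8 to 478 TPM) and *Krt8* (40.9 to 270 TPM) led the rise, while *Tead4* was at 13.5 and 14.4 TPM (adjusted p = 0.166). The summed TPM of 9 EPI markers stood at 765 and 795 in controls and at 442 and 440 in treated libraries, with 6 of 9 called lower, *Utf1* among them (257 to 95.4 TPM). Of 10 PrE markers, 1 was called higher (*Dab2*, 138 to 446 TPM), and their sum went from 599 and 608 to 1137 and 1148 TPM. So *Id2*, a TE gene by background knowledge, was higher in the libraries with more TE marker RNA, and *Nodal*, *Lefty2*, *Bmp4* and *Id3* were lower in those with less EPI marker RNA. The part of these lineage differences in the changes of the 10 genes was not tested. Oocyte and cumulus markers summed to 6.1 and 6.4 TPM with DMSO and 1.8 and 2.4 TPM with dTAG13.

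**Figure D2:**
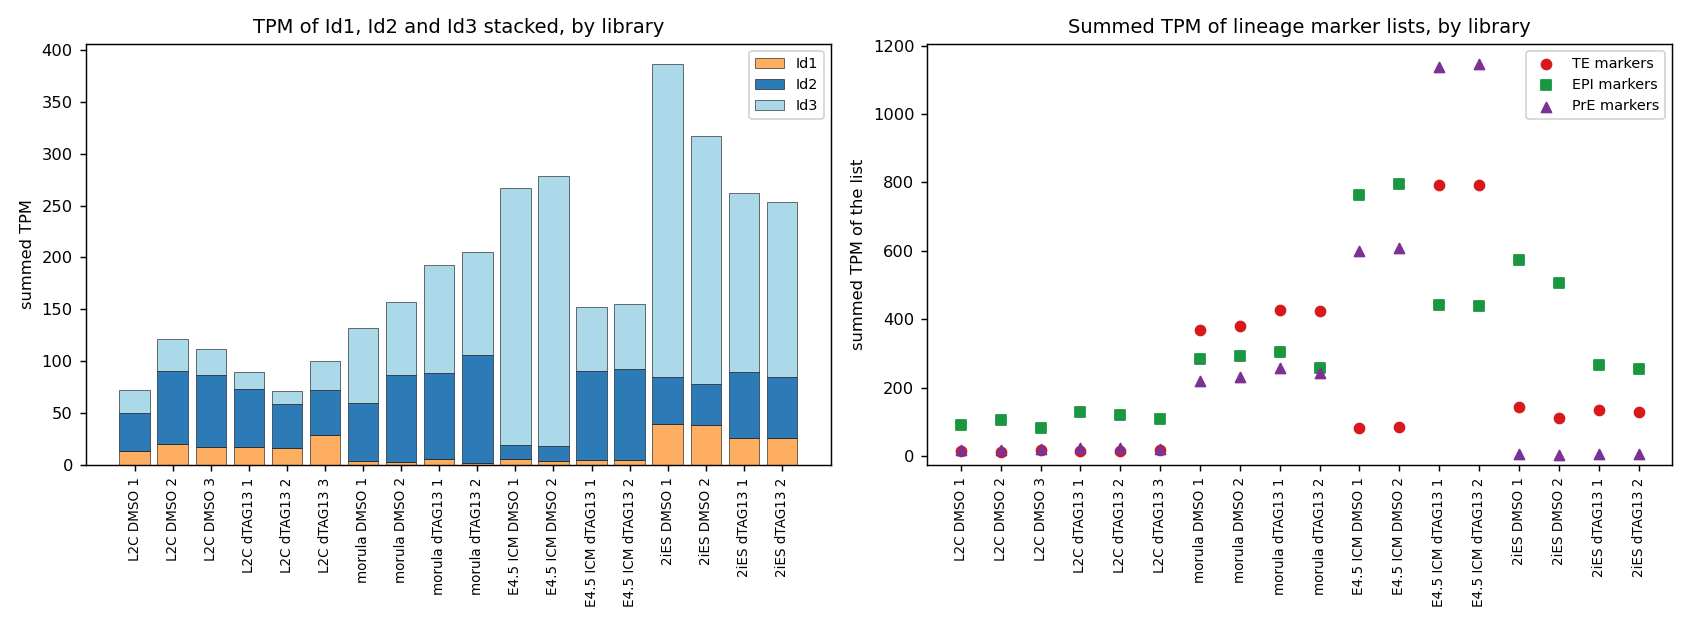
Left, TPM of *Id1*, *Id2* and *Id3* stacked for each library (vertical axis from 0); right, summed TPM of the TE, EPI and PrE marker lists in the same libraries. In the ICM the *Id2* block grows from 4.96% to 56.5% of the stack with dTAG13 where the TE sum goes from 81.1 and 85.4 to 792 and 793 TPM, while in 2iES cells *Id3* remains the largest block and the TE sums overlap between the groups.

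In 2iES cells, *Lefty2* and *Bmp4* fell with dTAG13, as in the ICM, while *Nodal* was higher instead of lower. Called lower were 2 of the 10 genes, a share near the 15.6% of the 15511 genes tested, and none was called higher by edgeR, against 12.4%. Over all genes, 2415 were called lower and 1924 higher, and upper-quartile scaling turned this to 1994 and 2467. By an adjusted p under 0.05 alone, 5 of 10 were lower and 3 higher (background 28.1% and 26.5%). The same 5 and 3 passed an unadjusted p under 0.05, and DESeq2 called 3 lower and 0 higher. The median log2 change was -0.25, beside 0.03 over all genes tested.

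*Lefty2* had 12.9 and 12.0 TPM with DMSO and 2.44 and 2.51 TPM with dTAG13, a 5.04-fold fall (log2 change -2.33, SE 0.17, adjusted p = 0.000108). *Bmp4* had 14.4 and 11.2 TPM with DMSO and 2.95 and 3.43 TPM with dTAG13, a 4.17-fold fall (log2 change -2.06, SE 0.17, adjusted p = 0.000191). For both genes the treated libraries lay well below the controls. *Lefty1* had 2.85 and 2.24 TPM with DMSO and 1.39 and 1.09 TPM with dTAG13, just short of a 2-fold fall (log2 change -1.0, SE 0.27, adjusted p = 0.0182). It was called without DMSO replicate 2 (-1.19) or without dTAG13 replicate 1 (-1.21), and its adjusted p was 0.122 without dTAG13 replicate 2. Lying at the limit, *Lefty1* was called in 7 of 13 alternatives. These count the run on summed *Lefty1* and *Lefty2* counts (-2.11), which does not test *Lefty1* alone. Among the rest were DESeq2, its size factors in edgeR, the replicate block and no count filter. *Lefty1* lost the test in the edgeR fit of all 18 libraries (adjusted p = 0.198). *Nodal* had 14.4 and 11.2 TPM with DMSO and 20.8 and 19.1 TPM with dTAG13, a 1.65-fold rise (log2 change 0.72, SE 0.16, adjusted p = 0.00838). Ligand and antagonists thus went opposite ways in these cells, although the *Nodal* adjusted p was 0.0855 without dTAG13 replicate 1, 0.0658 without dTAG13 replicate 2, and 0.199 in the fit of all 18 libraries.

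*Bmpr1a* was higher in treated 2iES cells, at 12.2 and 11.3 TPM against 5.83 and 7.04 TPM (1.97-fold, log2 change 0.98, SE 0.17, adjusted p = 0.0029), just under the 2-fold limit. Without DMSO replicate 2 it passed that limit (1.19). *Acvr2b* (4.53 and 2.16 TPM with DMSO, 2.65 and 2.92 with dTAG13) overlapped between the groups, and *Smad7* (2.38 and 2.85, then 3.29 and 3.04) was not past the test (adjusted p = 0.133), although it passed without DMSO replicate 2 (log2 change 0.48, adjusted p = 0.00746). *Id2* and *Id3* moved by smaller amounts than in the ICM. *Id1* passed the test here but not there, without reaching 2-fold in either. *Id2* had 45.2 and 39.6 TPM with DMSO and 64.0 and 59.3 TPM with dTAG13 (1.52-fold higher, adjusted p = 0.00566). *Id3* had 302 and 239 TPM with DMSO and 172 and 168 TPM with dTAG13 (1.5-fold lower, adjusted p = 0.00651). *Id1* had 39.4 and 38.4 TPM with DMSO and 25.9 and 25.6 TPM with dTAG13 (1.41-fold lower, adjusted p = 0.0181). None of the 3 overlapped between groups, but each lost the test on leaving out a treated library. The log2 changes were then 0.54 (*Id2*) and -0.51 (*Id1*) without dTAG13 replicate 1, and 0.62 (*Id2*), -0.61 (*Id3*) and -0.53 (*Id1*) without dTAG13 replicate 2. In the edgeR fit of all 18 libraries, *Id1* (adjusted p = 0.385) and *Id3* (0.0872) also lost it, as did *Id1* with upper-quartile scaling (0.0844). The *Id2* share of summed *Id* TPM went from 12.1% ± 0.54 to 23.9% ± 0.72 (SD, n = 2). In these cells the TE marker sums were 142 and 111 TPM with DMSO and 135 and 129 TPM with dTAG13, the EPI sums 572 and 505 and then 265 and 255 TPM with 4 of 9 EPI markers called lower, and the PrE sums 3.4 to 5.3 TPM.

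**Figure D3:**
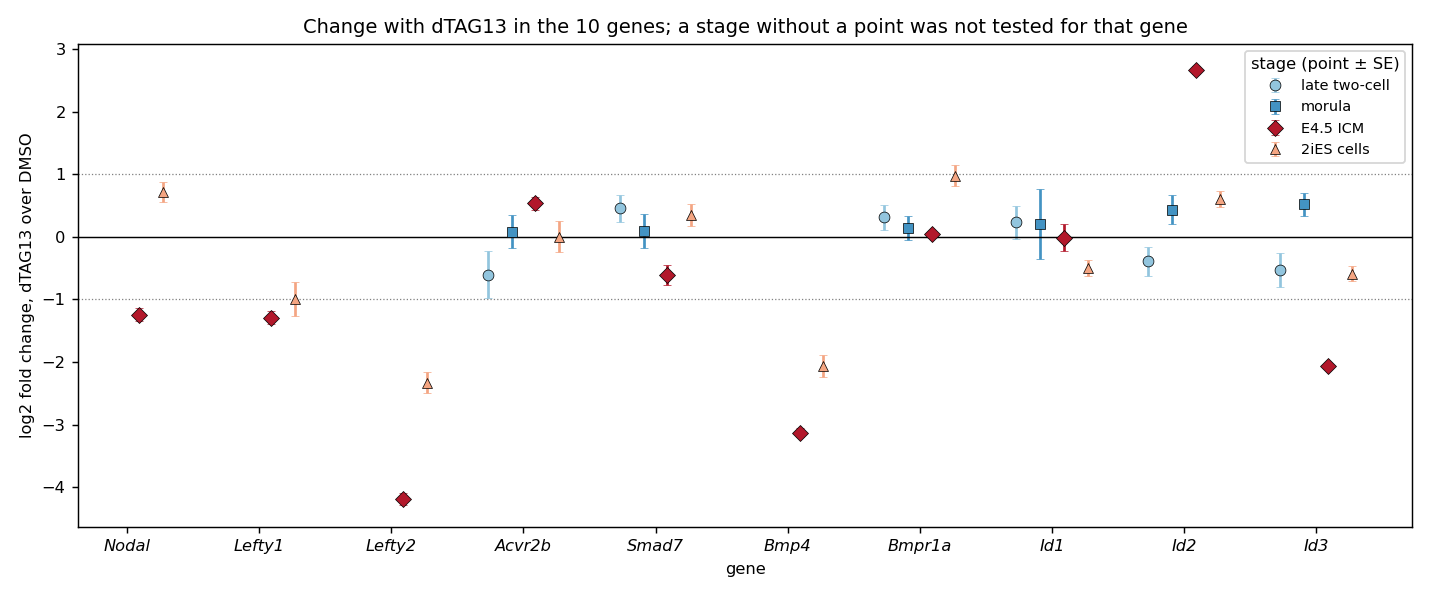
Log2 fold change of dTAG13 over DMSO (vertical axis, point ± SE from edgeR) for each gene (horizontal axis) at the 4 stages, with dotted lines at the 2-fold limit. The ICM points of *Lefty2* (-4.19), *Bmp4* (-3.13), *Id3* (-2.07) and *Id2* (2.67) and the 2iES points of *Lefty2* (-2.33) and *Bmp4* (-2.06) lie beyond 2 log2 units, and every L2C and morula point lies within the limit.

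The change differed between the ICM and 2iES cells for 5 of the 10 genes by the edgeR interaction test, at a difference of at least 1 on the log2 scale and an adjusted p under 0.05, against 26.6% of the 17657 genes tested. *Nodal* differed in direction (ICM minus 2iES -1.99, SE 0.19, adjusted p = 7.85e-05). *Lefty2* (-1.87, adjusted p = 6.2e-05), *Id3* (-1.50, 3.43e-05) and *Bmp4* (-1.09, 0.00117) fell further in the ICM, and *Id2* rose further there (2.04, 7.48e-06). The *Bmp4* difference was -0.93 without 2iES DMSO replicate 2 and -0.98 without ICM dTAG13 replicate 1, under the size limit. For *Lefty1*, 2.45-fold lower in the ICM and 1.99-fold lower in 2iES cells, the difference did not pass (-0.32, SE 0.25, adjusted p = 0.337). Nor did it pass for *Id1* (0.46, SE 0.24, adjusted p = 0.153) or *Acvr2b* (0.51, SE 0.26, adjusted p = 0.145). *Smad7* (-0.97, adjusted p = 0.00622) and *Bmpr1a* (-0.96, 0.0032) passed the test just under the size limit. Leaving out 1 library, the difference fell on either side of that limit, from -1.11 to -0.79 for *Smad7* and from -1.16 to -0.71 for *Bmpr1a*. Dose, length of exposure, medium and cell type all differ between these groups and cannot be told apart.

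**Figure D4:**
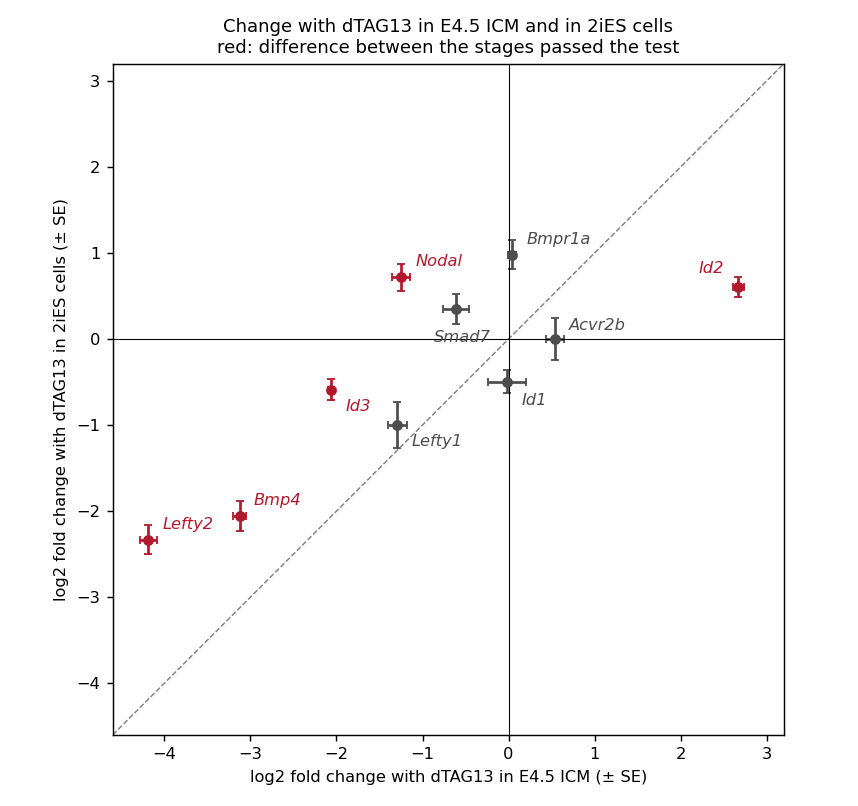
Log2 fold change with dTAG13 in the ICM (horizontal axis) and in 2iES cells (vertical axis) for the 10 genes, with SE bars, a dashed line of equal change, and red for the 5 genes whose difference passed. *Nodal* sits in the quadrant where it is lower in the ICM (-1.25) and higher in 2iES cells (0.72), and *Lefty2* and *Bmp4* are low on both axes.

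From the morula to the ICM, the difference passed for 4 of the 10 genes (background 21.0% of 16799 genes). *Id3* (morula minus ICM 2.57, SE 0.14, adjusted p = 8.15e-06) and *Id2* (-2.25, SE 0.26, 0.000308) had ample counts at both stages. *Lefty1* (2.10, adjusted p = 0.0276) and *Bmp4* (3.94, 0.0197) rested on 2 to 9 and 0 to 16 counts per morula library. *Bmp4* turned to -2.65 without morula dTAG13 replicate 1 (adjusted p = 0.483), and *Lefty1* lost its call on leaving out any of 6 of the 8 libraries, 1 at a time. Both comparisons of stages used the same ICM libraries.

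Around these 10 genes, 50 more genes of the Nodal and BMP pathways were read. In the ICM, 36 of them could be tested, of which 6 were called lower and 5 higher, shares near the 13.2% and 12.1% over all genes, with a median log2 change of 0.38 beside 0.01. On the Nodal side, the co-receptor gene *Tdgf1* was lower at 314 and 137 mean TPM (log2 change -1.25), the ligand *Gdf3* at 101 and 50.7 TPM (-1.06), the SMAD cofactor *Drap1* at 35.9 and 15.5 TPM (-1.29), and the type II receptor *Acvr2a* at 3.89 and 2.32 TPM (-1.10). The repressor gene *Tgif2* was also lower (-1.13), its relative *Tgif1* passed the test under the 2-fold limit (96.6 to 53.1 TPM, -0.88), and the type I receptor *Acvr1b* was higher (1.83). On the BMP side, the decoy receptor gene *Bambi* was lower (-1.45), and the extracellular modulator *Twsg1* (1.80), the ubiquitin ligase *Smurf1* (1.65), the type II receptor *Bmpr2* (1.27) and the target *Msx1* (1.26, named after its value was seen) were higher. With the 10 genes included, the Nodal branch had 8 genes called lower and 1 higher of 24 tested, and the BMP branch 3 lower and 5 higher of 22, beside the same 13.2% lower and 12.1% higher over all genes.

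In 2iES cells, 32 of the 50 could be tested, with 3 called lower (15.6% over all genes), 10 higher (12.4%), and a median of 0.30 beside 0.03. *Tgif2* (-3.02), the SMAD cofactor *Foxh1* (-1.42) and *Gdf3* (-1.21) were the 3 that fell. The largest of the 10 rises were those of the ligand *Bmp7* (2.31), *Bmpr2* (1.96), *Twsg1* (1.80) and *Smad3* (1.57). *Tdgf1* was at 235 and 190 mean TPM and did not pass (log2 change -0.24, adjusted p = 0.342). Among the 3 bHLH partners of ID proteins listed, *Tcf3* was lower in 2iES cells (-1.24, adjusted p = 0.00652) and none was called in the ICM, where 1 was lower and 1 higher by an edgeR adjusted p under 0.05 alone. At L2C, 1 of 32 tested genes was called, *Acvr2a*, which fell (4.20 to 2.27 mean TPM, log2 change -1.12, adjusted p = 0.0154), and the pathway gene with the highest control level was the ligand *Bmp5* (32.3 and 42.4 TPM, adjusted p = 0.19). In morulae none of 29 was called by edgeR or DESeq2, with 3 lower and 2 higher at an unadjusted p under 0.05.

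**Figure D5:**
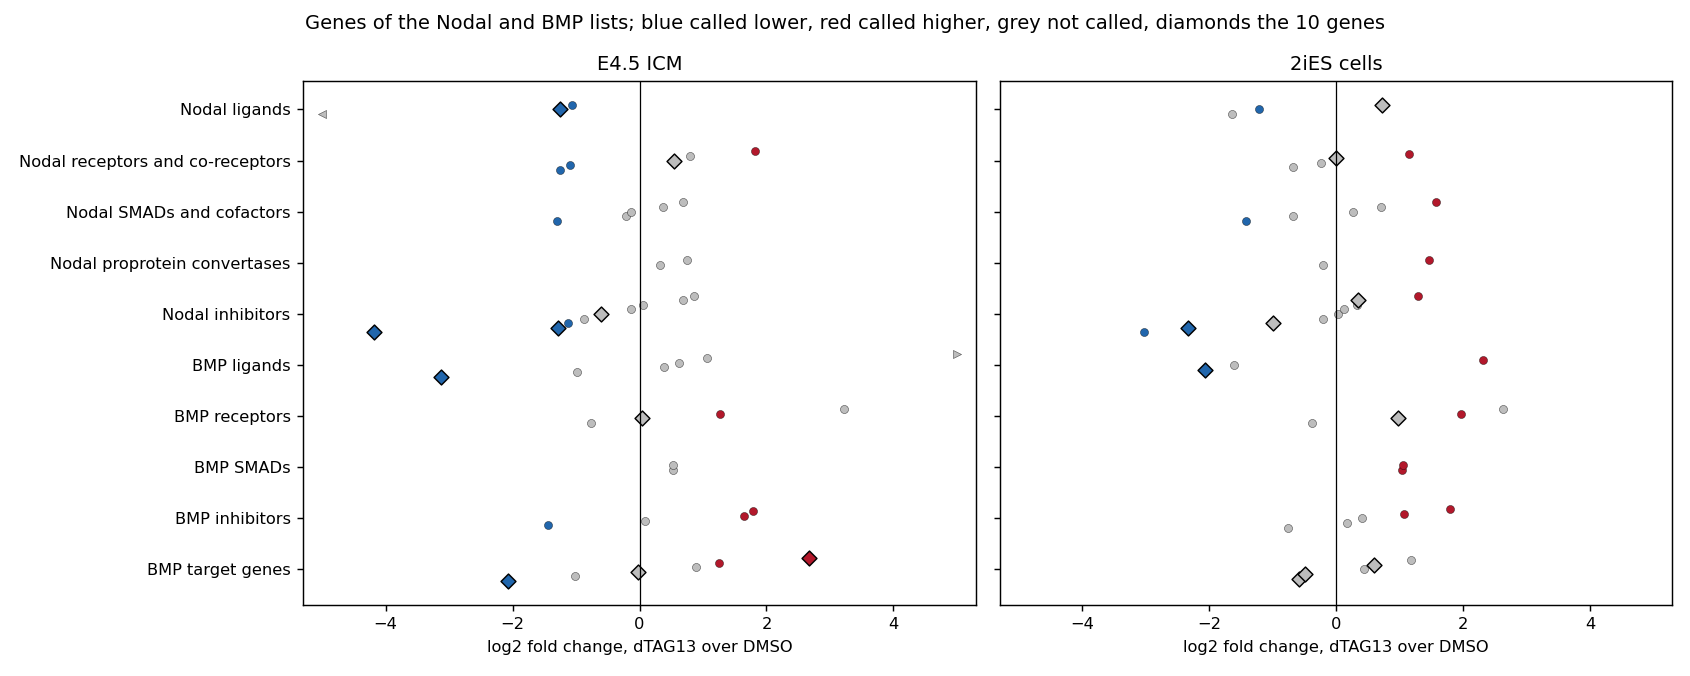
Log2 fold change of dTAG13 over DMSO (horizontal axis) for each tested gene of the 10 Nodal and BMP lists (rows) in the ICM and 2iES cells, blue where called lower, red where called higher, grey otherwise, with diamonds for the 10 genes and triangles for values beyond the axis. *Lefty2* and *Bmp4* are the blue diamonds on the left of both panels, and *Id2* is the red diamond in the ICM panel.

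The genes whose log2(TPM + 0.1) across the 18 libraries ran closest to 4 of the genes were read among 12032 genes with a mean of at least 5 TPM in 1 group. For *Lefty2* they were *Nnmt* (Pearson r = 0.995), *Crygd* (0.990) and *Slc7a3* (0.986), and for *Bmp4* they were *Cryzl1* (0.957), *Crygd* (0.935) and *Hes6* (0.934). *Id3* ran closest to *Gm10416* (0.967), *Eif4ebp1* (0.965) and *Adprh* (0.959), and *Id2*, with the least close match, to *Gm12976* (0.841), *Gm38299* (0.820) and *Crls1* (0.798). These values are descriptions over libraries that share stages and treatments. With a pseudocount of 1, 2 of the 3 genes were shared for *Lefty2*, *Bmp4* and *Id2*, and all 3 for *Id3*.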

How the data were processed

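RNA-seq libraries (SMART-Seq v4, unstranded) went through Trimmomatic for trimming, STAR for alignment and RSEM for quantification by the authors, whose own comparisons used DESeq2. The deposited tables give, per gene of GRCm38, expected counts, TPM and FPKM, with effective lengths and posterior standard deviations. TPM corrects for transcript length and depends on all other transcripts of a library, and FPKM as deposited served only the expression threshold. CUT&RUN, ATAC-seq and H3K27ac libraries were not analysed here.

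Expected counts were rounded and tested with edgeR 4.0.16 (R 4.3.3, limma 3.58.1; quasi-likelihood, TMM) within each stage, for genes with at least 10 counts in a number of libraries equal to the smaller group's size, with Benjamini-Hochberg adjustment over all genes tested. Control stages were compared in 1 fit of 9 libraries, and stages' changes by interaction terms in 8 libraries. The interaction fits pooled the spread of both stages (biological coefficient of variation 0.112 for ICM with 2iES cells and 0.135 for morula with ICM). Called means an adjusted p under 0.05, 2-fold or more, and a mean FPKM reaching 1 in either group. Alternatives were DESeq2 1.42.0, other scalings, filters, fold limits, libraries and a replicate block. Scripts were tested on simulated data. Tables and figures used Python 3.11.15, pandas 2.3.3 and matplotlib 3.10.9. Gene names came from GENCODE M21.

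The 10 genes, pathway lists and marker lists were chosen with earlier results of these data known. The text names all 10 genes, *Gabpa*, up to 4 called genes per direction and 4 abundant genes of the pathway lists, up to 3 markers per list, and the 3 genes closest in pattern to each of 4 genes. Replicates of the ICM were close (median chi-square over genes, relative to that of sampling noise alone, 1.62 and 1.69, against 2.86 to 16.1 elsewhere). They differed by more than sampling noise, so none was merged, but this does not show that they came from separate embryo pools.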

Additional observations from a re-analysis of the deposited data

Results flagged for a closer look

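The edgeR test of the interaction picked out 9 differences between stages in the change with dTAG13. Between the ICM and 2iES cells (ICM minus 2iES, log2 scale) these were *Nodal* at -1.99, *Lefty2* at -1.87, *Bmp4* at -1.09, *Id2* at 2.04 and *Id3* at -1.50. Of these, *Nodal* changed sign between the stages and the other 4 kept theirs, with the larger change in the ICM. Between the morula and the ICM (morula minus ICM) these were *Lefty1* at 2.10, *Bmp4* at 3.94, *Id2* at -2.25 and *Id3* at 2.57. The *Lefty1* and *Bmp4* values rest on a few counts in morulae, and *Bmp4* turned to -2.65 without morula dTAG13 replicate 1. All 9 values use the same ICM libraries, and no cause was tested.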

How the results depend on the processing

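In the ICM, the calls of *Nodal*, *Lefty2*, *Bmp4*, *Id2* and *Id3* held in every alternative run, and in 2iES cells those of *Lefty2* and *Bmp4* did. Of the values not counted as single genes, 320 stayed near the reported one and 38 moved. With no fold limit, the genes called were 1253 lower and 220 higher at L2C, 5355 and 5100 in the ICM, and 3981 and 3353 in 2iES cells, with 2 of the 10 genes higher in the ICM and 5 lower and 3 higher in 2iES cells. The 83 genes called higher at L2C became 132 with DESeq2, 180 with no count filter, 125 with upper-quartile scaling, and 45 to 100 leaving out 1 library. In morulae, the 27 lower and 21 higher genes became 66 and 44 with DESeq2, 76 and 103 in the fit of all 18 libraries, 142 and 106 with the replicate block, 139 and 106 with no count filter, 76 and 34 with library totals, and 25 to 129 and 17 to 234 leaving out 1 library. In 2iES cells, *Bmpr1a* was called higher (1 of 10) with all 18 libraries, library totals or upper-quartile scaling, and 0 to 1 gene leaving out 1 library. Library totals gave 2 genes lower in 2iES cells than in the ICM, 1 to 2 genes were lower in the ICM than in morulae leaving out 1 library, and 2 to 5 differed between morula and ICM. The causes were not tested.

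Several uncalled changes near 0 changed sign. These were *Id1* at L2C (-0.041 to 0.44 leaving out 1 library), *Acvr2b* (-0.11 to 0.30), *Smad7* (-0.18 to 0.44) and *Id1* (-1.01 to 0.87, and -0.014 with the replicate block) in morulae, *Bmpr1a* (-0.0044 to 0.089) and *Id1* (-0.28 to 0.29, 0.048 with library totals and 0.086 with upper-quartile scaling) in the ICM, and *Acvr2b* in 2iES cells (-0.27 to 0.27, -0.0024 with DESeq2, -0.0029 with its size factors in edgeR and -0.075 with no count filter). The morula minus ICM difference of *Bmp4* ran from -2.65 to 4.88, and its call was lost with DESeq2 (adjusted p = 0.115) and with the replicate block (0.054). Upper-quartile scaling moved the median of all genes to 0.14 at L2C, 0.11 in the ICM and 0.21 in 2iES cells.

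The main fits did not pair libraries by replicate number, and the labels do not say whether they were paired. Deviations of same-numbered libraries correlated at 0.054, 0.129 and 0.098 at L2C, 0.025 in morulae, -0.045 in the ICM and -0.237 in 2iES cells. At L2C each library correlated best with its own number, and different-numbered libraries stood at -0.096 to -0.0019. With 2 libraries a group, same-numbered and crossed values mirror each other, so they cannot decide on pairing. With the replicate block, 2392 genes were lower and 1977 higher in 2iES cells, and with crossed numbers, chosen after seeing the data, 2411 and 2019. Where leaving out a library left 1 in an arm, that library was assumed to vary like the others. At morula depth, *Nodal*, the *Lefty* genes and *Bmp4* could not be tested.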
